A study of Mus musculus with 24 samples.

Results

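The flow by time interaction asks whether the effect of wall shear stress (WSS) on a transcript at 36 h differs from its effect at 6 h. It was computed for every detected gene as the log2 flow effect at 36 h (WSS minus static) minus that at 6 h, from the 12 vehicle arrays of a series of 24, and 12226 genes were tested. The cells came from the aorta-gonad-mesonephros (AGM) region of C57BL/6J mouse embryos at day 10.5 of gestation. The tissue was dissociated, plated in microfluidic channels and washed. The adherent cells of a mixed tissue were thus measured, and each sample pooled 6 channels. The 4 groups of 3 arrays were static culture, at 1e-04 dyne per cm2, and WSS, at 5 dyne per cm2, each for 6 h and for 36 h and all with vehicle. The other 12 arrays had the same flow states and times with 10 uM indomethacin, a cyclooxygenase inhibitor, and serve here as a second set of samples. Genes were then sorted into early-only, late-only, lasting and reversed flow effects by fixed rules given below.

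The AGM surrounds the dorsal aorta of the midgestation embryo, where blood stem cells bud from an endothelial lining that feels the drag of the circulation. Endothelial cells sense this drag and answer it with transcription factors such as Klf2 and Klf4, while stromal, neural crest and smooth muscle cells lie outside the vessel lumen. Other transcript programmes that appear below are well known from many cells. Hypoxia-inducible factors (HIFs) switch on glucose uptake, glycolysis and their own hydroxylases in low oxygen, immediate early genes such as Fos answer stimuli within minutes, and p53 raises cell cycle inhibitors and its own ubiquitin ligase Mdm2.

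Each array had 18681 to 22156 of its 45281 probes above background (41.3 to 48.9%), and precision is set by having 3 arrays per group. Mean signals before normalization were 424 in static and 567 in WSS arrays at 6 h, and 466 and 558 at 36 h. WSS array 2 at 36 h stood apart from its group on the second principal component, so counts are also given without it. Chip and scan are not named in the labels and were not tested as batches. Whether the replicates of a group were separate cultures is also not given, so p-values refer to the spread among these arrays, and that spread may be technical only. Defining markers of mesenchyme, erythroid, macrophage, skeletal muscle, smooth muscle and neuronal cells were found in the vehicle groups, whereas of the 5 tested endothelial markers 4 were above background on all 3 arrays of each 6 h group and 2 on all 3 arrays of each 36 h group. In such bulk samples fewer cells of a type and less RNA per cell cannot be told apart. All effects are differences of normalized log2 signals ± SE from limma, with p-values adjusted by Benjamini-Hochberg over 12226 genes, and a gene passed at an adjusted p under 0.05.

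The flow effect differed between 6 h and 36 h for 1437 genes, 774 with a more positive and 663 with a more negative effect at 36 h. These are 11.8% of genes tested, 6.33% in the positive and 5.42% in the negative direction. At 6 h 3593 genes passed (29.4%), 1841 higher (15.1%) and 1752 lower (14.3%) under WSS. At 36 h 1147 passed (9.38%), 570 higher (4.66%) and 577 lower (4.72%). Of 3164 genes that passed at 6 h and not at 36 h, 999 (31.6%) had a difference between the times that itself passed, and so did 231 of 718 (32.2%) that passed at 36 h and not at 6 h. The rest of both sets, 2165 and 487 genes, cannot be placed by time, since a missed threshold does not show a lost effect. With WSS array 2 at 36 h left out the interaction passed for 913 genes, without WSS array 1 at 6 h for 845 and without static array 3 at 6 h for 836. The 36 h effect passed for 626 and 608 genes without static array 1 or 3 at 36 h.

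Early-only genes, which passed at 6 h and for the difference but not at 36 h, numbered 999, of which 523 were lower and 476 higher under WSS at 6 h. Late-only genes, which passed at 36 h and for the difference but not at 6 h, numbered 231, with 136 higher and 95 lower. A flow effect of the same sign passed at both times in 366 genes, of which 346 had no difference called and 20 differed in size. Effects of opposite sign passed at both times in 63 genes, 35 that rose and then were lower and 28 that fell and then were higher. In a further 124 genes the difference passed while neither flow effect did, and 7791 genes passed nothing. With single arrays left out, early-only genes numbered 644 without WSS array 2 at 36 h, 546 without WSS array 1 at 6 h and 559 without static array 3 at 6 h. Late-only genes numbered 146 without WSS array 2 at 36 h, and 145 and 151 without static array 1 or 3 at 36 h, where lasting genes numbered 217 and 223. Reversed genes numbered 41, 40, 35, 35 and 35 without WSS array 2 at 36 h, WSS array 1 at 6 h, static array 3 at 6 h and static arrays 1 and 3 at 36 h. Genes with the difference alone called numbered 61, 64, 69, 69 and 73 without WSS array 2 or static array 1 at 36 h, static array 2 or 3 at 6 h or WSS array 1 at 6 h. At the edge of the threshold lay Dnmt1 (interaction 0.57 ± 0.19) and Ahctf1 (0.58 ± 0.19) just inside, and Neurod2 (-0.89 ± 0.29) and Suz12 (0.62 ± 0.20) just outside.

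These counts rest on quantile normalization, which holds the distribution of signals equal across arrays. When arrays were scaled by their medians instead, the median flow effect of all genes moved from 0.01 to 0.24 at 6 h and from 0.03 to 0.24 at 36 h, and 82.2% of the 4318 genes passing at 6 h and 87.1% of the 2065 at 36 h were higher under WSS, against 51.2% and 49.7% with quantile normalization. The median interaction of all genes moved less, from 0.02 to -0.03, and 680 genes passed, 50.4% of them positive against 53.9%. The sign of a small flow effect at a single time thus depends on the scaling, more than the sign of the interaction does. Class membership depends on it as well. Under median scaling there were 439 early-only, 161 late-only, 909 lasting and 55 reversed genes. Of the 999 early-only, 231 late-only and 63 reversed genes, 380 (38%), 91 (39.4%) and 21 (33.3%) kept their class. Of the 366 lasting genes 235 (64.2%) did, and of the 124 with the difference alone called 3 (2.42%).

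**Figure D1:**
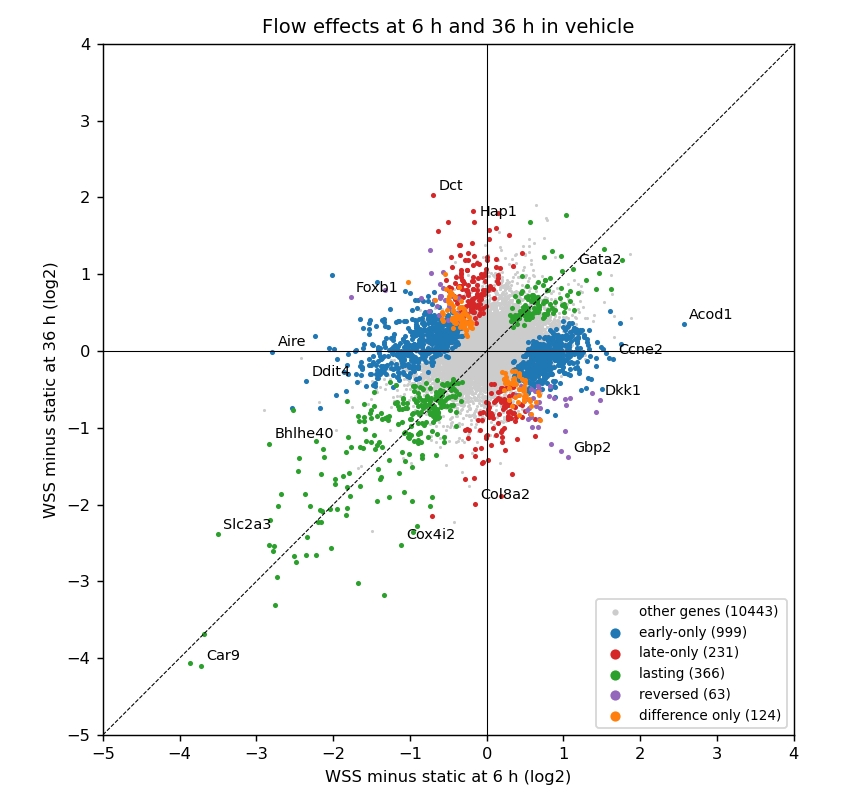
Each point is a gene, placed by its WSS minus static difference (log2) at 6 h on the x axis and at 36 h on the y axis, and coloured by class; the dashed line marks equal effects. Early-only genes (999) lie along the x axis, late-only genes (231) along the y axis, lasting genes (366) near the dashed line, mostly at the lower left, and reversed genes (63) in the other 2 quadrants.

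The interaction is also, by construction, the change from 6 h to 36 h under WSS minus the same change in static culture. The time changes below come from the arrays that set the classes, so they describe which arm moved and test nothing. Of all genes 6231 (51%) changed with time in static culture and 4372 (35.8%) under WSS. Early-only genes that were lower under WSS at 6 h had a median time change of -1.03 in static culture, while the median under WSS was -0.09. Those higher under WSS at 6 h had medians of 0.76 in static culture and -0.12 under WSS. In 824 of 999 early-only genes (82.5%) the time change was larger in absolute size in static culture than under WSS, against 7593 of all 12226 genes (62.1%). Of the 999 early-only genes 598 passed in static culture alone and 126 under WSS alone. Among the 7791 genes that passed nothing for flow or the difference these numbers were 1354 and 632. Late-only genes that fell under WSS showed the same order, with a larger static change in 80 of 95 genes (84.2%) and medians of 0.91 and 0.03. Late-only genes that rose had a larger static change in 62 of 136 (45.6%), below the share of all genes, and medians of -0.49 in static culture and 0.52 under WSS.

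**Figure D2:**
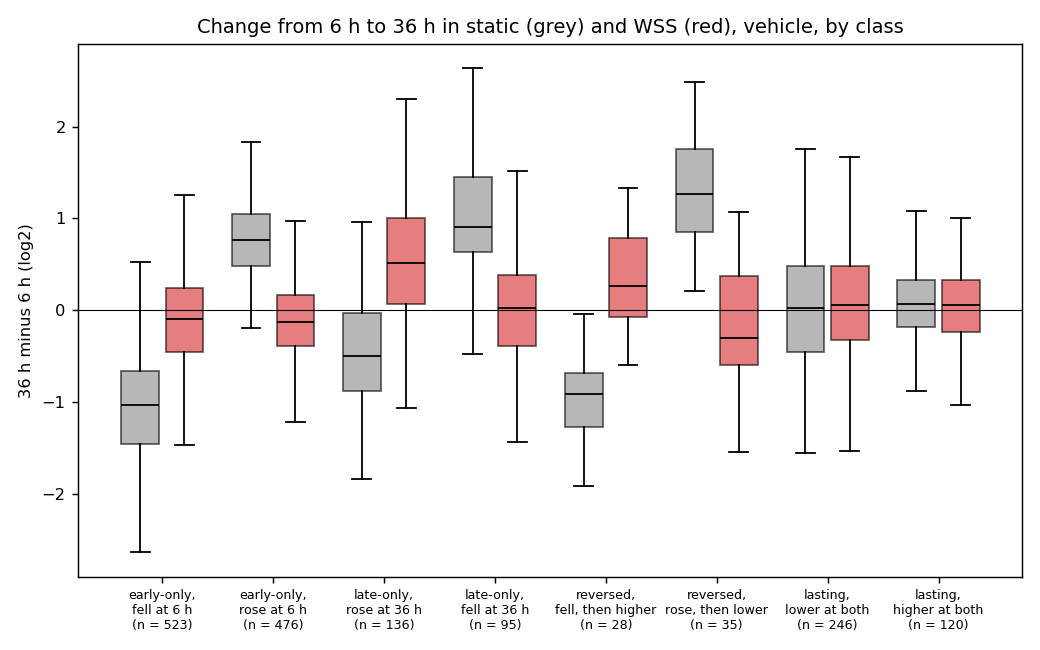
Boxes show the change from 6 h to 36 h (log2) of the genes of each class in static culture (grey) and under WSS (red), with the median as a line, the quartiles as the box and whiskers to the last value within 1.5 box lengths. In the early-only classes the grey boxes lie away from 0 (medians -1.03 and 0.76) and the red boxes near it.

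Among early-only genes lower under WSS at 6 h the largest interaction of a gene with a name was in Aire, a regulator known for showing tissue antigens in the thymus, after that of the clone 6330415B21Rik (3.00), which was singled out after its value was seen. The normalized log2 signals of Aire at 6 h were 7.79, 6.66 and 7.71 in static and 4.76, 4.51 and 4.51 in WSS arrays. At 36 h they were 4.46, 4.79 and 4.61 in static and 4.76, 4.51 and 4.56 in WSS arrays. It was above background on the 3 static arrays at 6 h and on no array of the other vehicle groups, so that it was at least 4.86-fold lower under WSS at 6 h, and its interaction was 2.79 ± 0.30 (adjusted p = 8e-05). A second probe of Aire gave a smaller interaction of 1.25. Ddit4, an inhibitor of mTORC1 induced by stress and low oxygen, had signals at 6 h of 12.31, 12.37 and 12.49 in static and 10.24, 9.81 and 10.07 in WSS arrays. By 36 h the values were 11.51, 11.37 and 11.31 in static and 10.76, 11.39 and 10.85 in WSS arrays. The groups were fully apart at 6 h and overlapped at 36 h. Ddit4 was 5.1-fold lower under WSS at 6 h with a flow effect of -0.39 ± 0.21 at 36 h, and its interaction was 1.96 ± 0.30 (adjusted p = 0.00083).

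Other early-only falls were Epha2, an ephrin receptor, with flow effects of -1.66 at 6 h and 0.42 at 36 h, and Trpm7, a magnesium-permeable channel with a kinase domain, with -1.99 and 0.02. Sostdc1, a secreted antagonist of BMP and Wnt signals, had -1.43 and 0.90, and the potassium channel gene Kcnq5 -1.52 and 0.40. Genes listed under older symbols, Phxr4 (-2.23 and 0.20) and Mrg1 (-2.06 and 0.04), were also early-only. The interactions of these 6 genes lay between 1.92 and 2.43, with adjusted p of at most 0.012. In these 6 genes, Aire and Ddit4 the 3 WSS arrays at 6 h lay below the 3 static arrays, where the groups did not overlap in 45.9% of all genes.

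Early-only rises were led by Acod1, which makes itaconate in activated macrophages. Its signals at 6 h were 4.79, 4.77 and 4.42 in static and 8.09, 7.11 and 6.47 in WSS arrays. The 36 h signals were 4.46, 4.67 and 4.58 in static and 4.77, 5.22 and 4.77 in WSS arrays. WSS arrays alone were high at 6 h, and no static array was above background, so Acod1 was at least 4.76-fold higher at 6 h, and its interaction was -2.22 ± 0.57 (adjusted p = 0.017). Ccne2, a cyclin of entry into S phase, had signals of 7.13, 6.72 and 6.76 in static and 8.78, 8.31 and 8.44 in WSS arrays at 6 h. At 36 h these were 8.05, 7.85 and 7.81 in static and 7.87, 7.85 and 7.68 in WSS arrays, so that static arrays had risen and WSS arrays had fallen towards a shared level. It was 3.12-fold higher under WSS at 6 h, with an interaction of -1.75 ± 0.28 (adjusted p = 0.0011). The 6 tested macrophage markers summed to 8.38 to 8.71 in static and 8.67 to 9.81 in WSS arrays at 6 h and 9.18 to 9.97 and 9.64 to 10.60 at 36 h, as log2 of the sum, and their part in the result for Acod1 was not tested.

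Chrna1, a subunit of the muscle acetylcholine receptor, had flow effects of 1.50 at 6 h and -0.49 at 36 h, and Sec22a, of vesicle traffic, 1.23 and -0.51. The 4 skeletal muscle markers summed to 12.34 to 12.84 in static and 13.11 to 13.29 in WSS arrays at 6 h and 12.88 to 13.60 and 12.90 to 13.68 at 36 h, and their part in the result for Chrna1 was not tested. The complement regulator gene Cr1l had 1.59 and -0.09, the adaptor gene Dok1 0.89 and -0.83, the zinc finger gene Zfp386 1.29 and -0.49, and the metalloproteinase gene Mmp28 1.36 and -0.36. In Dok1 and Sec22a the effect at 36 h missed the threshold narrowly (adjusted p = 0.051 and 0.055), so on the probes used these lie near the reversed genes. A further detected probe of Dok1 had flow effects of 0.33 and -0.67. Further probes of Sec22a had 0.35 and 0.08, and 0.43 and 0.32, with small interactions of -0.28 and -0.11 and no turn in sign. The interaction missed the threshold without some single arrays for Acod1, Ccn1, Cd14, Clock, Cxcl10, Egr1, Ermap, Fli1, Fos, Gdf10, Mmp28, Mxi1, Phgdh, Sdhb, Srebf2, Tfrc, Ttn and Tyms, each without 1 to 11 of the 12 vehicle arrays, and its adjusted p then reached at most 0.14, for Mxi1 (interaction 0.57) without WSS vehicle array 2 at 36 h. With single arrays left out the 6 h effect missed the threshold for Dok1, Fli1, Mmp28, Phgdh, Sostdc1 and Ttn, without 1 to 4 arrays each, with adjusted p of up to 0.23 (Fli1, without WSS vehicle array 1 at 6 h). For 971 of the 999 early-only genes the 95% interval of the 36 h effect lay within 1 of 0 on the log2 scale. The same held for 7263 of the 7791 genes that passed nothing. It also held for 2053 of the 2165 genes that passed at 6 h alone without a called difference. Early-only genes were picked for not passing at 36 h, so this count was in part fixed by the rule.

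Late-only rises were led by Dct, an enzyme of melanin synthesis that marks melanoblasts. Its signals at 6 h were 6.09, 5.53 and 5.93 in static and 5.37, 4.78 and 5.29 in WSS arrays. After 36 h they were 5.12, 6.24 and 6.53 in static and 7.29, 8.93 and 7.75 in WSS arrays. At 6 h the WSS arrays lay below the static arrays, and at 36 h all 3 lay above every other array (groups were apart in 24% of all genes at 36 h), and 2 of 3 arrays were above background in both the WSS group at 6 h and the static group at 36 h. Dct was 4.08-fold higher under WSS at 36 h, with an interaction of 2.73 ± 0.51 (adjusted p = 0.0027). Hap1, a huntingtin-associated protein abundant in neurons, had signals of 8.23, 8.28 and 8.15 in static and 7.81, 8.35 and 8.01 in WSS arrays at 6 h. At 36 h they were 7.36, 8.02 and 7.00 in static and 9.28, 9.21 and 8.94 in WSS arrays, with WSS above static on every array, and the interaction was 1.85 ± 0.28 (adjusted p = 0.00083). Ret, a receptor tyrosine kinase of enteric and sympathetic neurons, had a flow effect of -0.35 ± 0.23 at 6 h and 1.38 ± 0.23 at 36 h, and its interaction was 1.73 ± 0.33 (adjusted p = 0.003).

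Other late-only rises were the argininosuccinate synthase gene Ass1, which feeds arginine synthesis, with flow effects of -0.50 at 6 h and 1.68 at 36 h, and the matrilin gene Matn4 with -0.17 and 1.83. Jph3, a junctophilin of excitable cells, was not above background in static culture at 36 h and was at least 2.2-fold higher under WSS. Il11, a cytokine of the interleukin-6 family, had 0.15 and 1.80, and the relaxin gene Rln1 -0.46 and 1.22. Their interactions lay between 1.65 and 2.18, with adjusted p of at most 0.012.

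Late-only falls were led by Tcfl5, a transcription factor known from the testis. Its signals at 6 h were 6.90, 7.06 and 6.61 in static and 7.04, 6.81 and 7.26 in WSS arrays. By 36 h the values were 8.17, 7.24 and 8.09 in static and 6.00, 5.77 and 6.09 in WSS arrays. Static arrays had risen and WSS arrays had fallen, so that Tcfl5 was 3.69-fold lower under WSS at 36 h with an interaction of -2.06 ± 0.32 (adjusted p = 0.00083). Col8a2, a collagen chain of basement membranes, had signals of 4.93, 4.85 and 5.05 in static and 4.93, 4.67 and 4.76 in WSS arrays at 6 h, where it was above background on 1 of the 3 static arrays. The 36 h signals were 8.54, 8.44 and 7.91 in static and 5.93, 6.59 and 6.39 in WSS arrays, a rise with time in both flow states that was smaller under WSS, and the interaction was -1.84 ± 0.31 (adjusted p = 0.0015). Here and for Pdgfrl, a PDGF receptor-like gene (flow effects 0.63 and -1.11), static culture gained 3.35 and 2.80 between the times and WSS culture 1.52 and 1.06.

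Further late-only falls were Tulp1, a photoreceptor protein, with flow effects of 0.33 at 6 h and -1.60 at 36 h, As3mt, an arsenic methyltransferase, with 0.24 and -1.29, and the pentraxin gene Ptx3 with -0.16 and -1.65. Pdlim2, a regulator of NF-kappaB, had 0.39 and -1.14, and the methionine sulfoxide reductase gene Msrb3 0.62 and -0.89. The interaction missed the threshold without some single arrays for Nupr1, Pdlim2, Ptx3 and Sptb, each without 2 to 9 of the 12 vehicle arrays, and its adjusted p then reached at most 0.11, for Ptx3 (interaction -1.17) without static vehicle array 2 at 6 h. The 36 h effect was likewise lost for Atf5, Msrb3, Pdlim2, Rln1, Sox10, Sptb and Wnt2, without 1 to 8 single arrays each, with adjusted p of up to 0.2 (Msrb3, without WSS vehicle array 2 at 36 h).

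**Figure D3:**
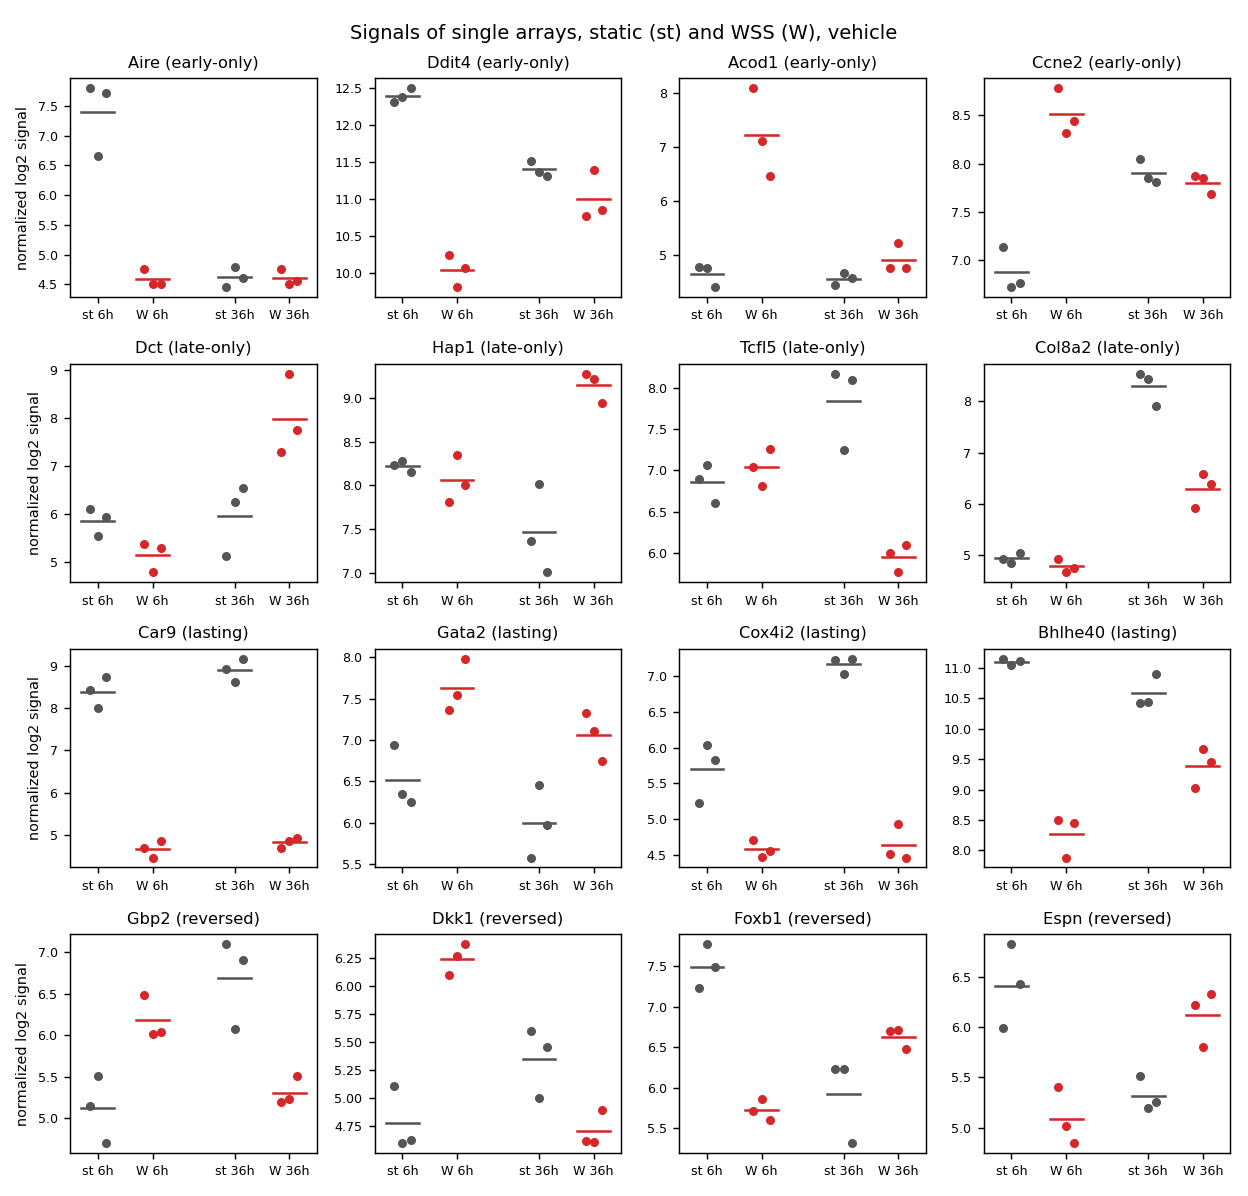
Each panel shows a gene's normalized log2 signal on the 3 static (grey) and 3 WSS (red) arrays at 6 h and 36 h, with the group mean as a line; the y axes differ and do not start at 0. Groups are apart at 6 h in the early-only row, at 36 h in the late-only row and at both times in the lasting row, and the order of static and WSS turns around in the reversed row.

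Of the 346 lasting genes without a called difference, 228 were lower and 118 higher under WSS at both times, whereas under median scaling 110 were lower and 787 higher, so the majority side depends on the scaling. Car9, a carbonic anhydrase induced in low oxygen, was among the largest. Its signals at 6 h were 8.43, 8.00 and 8.75 in static and 4.69, 4.46 and 4.85 in WSS arrays. After 36 h they were 8.94, 8.63 and 9.17 in static and 4.68, 4.85 and 4.92 in WSS arrays. No WSS array was above background, and Car9 was at least 9.74-fold lower at 6 h and at least 13.8-fold lower at 36 h, with an interaction of -0.37 ± 0.29 (adjusted p = 0.42). As both folds are bounds, equal sizes were not shown. Mgarp, a mitochondrial protein, had flow effects of -3.86 and -4.06, Pdk1, a kinase that holds pyruvate out of mitochondria, -3.68 and -3.69, and Egln3, a hydroxylase that marks HIFs for decay, -2.78 and -2.61. The class II antigen gene H2-Ab1 had -2.76 and -3.31, and the hormone gene Stc2 -2.84 and -2.53. For these 6 genes the interaction on the probes used was at most 0.55 in size, with adjusted p of 0.38 or more. Further detected probes had interactions of -0.78 and -0.88 for Car9 and of -1.06 and -0.20 for H2-Ab1. A further probe of Egln3 had flow effects of only -0.55 and -0.06, so its lasting fall depends on the probe.

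Lasting rises had a median of 0.62 at 6 h and 0.59 at 36 h, against -0.89 and -0.82 for lasting falls. Gata2, a transcription factor that blood stem cells need, had signals at 6 h of 6.93, 6.34 and 6.25 in static and 7.36, 7.54 and 7.98 in WSS arrays. At 36 h they were 5.58, 6.45 and 5.97 in static and 7.33, 7.11 and 6.75 in WSS arrays. WSS lay above static on every array at both times, by 2.17-fold and 2.09-fold, and the interaction was -0.05 ± 0.33 (adjusted p = 0.94). Nqo1, a quinone reductase of the antioxidant response, had flow effects of 1.53 and 1.33, the adenosine deaminase gene Ada 0.99 and 1.04, Pcp4l1 1.76 and 1.18, the urotensin gene Uts2b 1.04 and 1.78, and the small heat shock gene Cryab 1.46 and 1.02. A missing call does not show equal effects. The 95% interval of the interaction reached a median of 0.50 to either side over the 346 genes, and lay within 1 of 0 for 282 of them. Single arrays ended the 36 h call of Cryab, Ier3, Nqo1 and Thbd (adjusted p of up to 0.2, for Cryab without static vehicle array 1 at 36 h) and, without any of 5 arrays, the 6 h call of Uts2b.

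In 20 genes the flow effect passed with the same sign at both times and differed in fitted size, being smaller at 36 h in 14 and larger in 6. Bhlhe40, a transcription repressor of the clock that HIF induces, had signals at 6 h of 11.15, 11.05 and 11.12 in static and 8.49, 7.88 and 8.44 in WSS arrays. By 36 h the values were 10.42, 10.45 and 10.90 in static and 9.03, 9.66 and 9.46 in WSS arrays. It was 7.15-fold lower under WSS at 6 h and 2.31-fold lower at 36 h, with groups apart at both times and an interaction of 1.63 ± 0.33 (adjusted p = 0.0043). Effects that shrank were also found in the calcium and phosphate hormone gene Stc1 (-2.52 and -0.77), the glucose transporters Slc2a3 (-3.51 and -2.39) and Slc2a1 (-2.68 and -1.86), the mitophagy gene Bnip3l (-1.60 and -0.85) and, as a rise, the ribonucleotide reductase gene Rrm2 (1.14 and 0.53). In Cox4i2, the low-oxygen form of a cytochrome oxidase subunit, the static level changed. Its signals at 6 h were 5.22, 6.04 and 5.83 in static and 4.71, 4.48 and 4.56 in WSS arrays. The 36 h signals were 7.22, 7.03 and 7.24 in static and 4.52, 4.94 and 4.47 in WSS arrays. WSS arrays were not above background at either time, so Cox4i2 was at least 1.5-fold lower under WSS at 6 h and at least 4.11-fold lower at 36 h. Both are lower bounds, and whether the flow effect itself grew was not measured, although the interaction passed (adjusted p = 0.0015). Falls with a larger fitted size at 36 h were those of Tmem45a (-1.34 and -3.18), the galanin gene Gal (-0.90 and -2.28), the collagen gene Col9a3 (-0.74 and -2.02) and the chemokine gene Cxcl13 (-0.71 and -1.90), where no WSS array at 36 h was above background for Cxcl13 and its fall was at least 2.82-fold. Stc1, Rrm2, Tmem45a, Gal, Col9a3 and Cxcl13 were chosen after their values were seen. The interaction missed the threshold without some single arrays for Bnip3l, Slc2a1 and Slc2a3, each without 6 to 9 of the 12 vehicle arrays, and its adjusted p then reached at most 0.13, for Slc2a1 (interaction 0.58) without WSS vehicle array 2 at 36 h.

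Most glycolysis and HIF target genes were lower under WSS at both times. For glycolysis and glucose uptake, of 19 tested genes, 0 rose and 17 fell at 6 h and 0 rose and 17 fell at 36 h, with a median flow effect of -1.46 and -1.60, where all genes tested had medians of 0.01 and 0.03. Among HIF targets outside glycolysis, of 21 tested genes, 0 rose and 20 fell at 6 h and 0 rose and 19 fell at 36 h, and the median flow effect was -2.19 at 6 h and -1.74 at 36 h. Falls were called in 14.3% of all genes at 6 h and in 4.72% at 36 h. Members of both lists were chosen with earlier results of these data known, so their counts and medians may in part follow from that choice. The interaction was called, as positive, in 2 of 19 glycolysis genes (Slc2a3 and Slc2a1) and 4 of 21 HIF targets (Ddit4, Bhlhe40, Bnip3l and Mxi1, a MYC antagonist with flow effects of -1.22 and -0.47), against 6.33% of all genes, and in 0 and 2 by limma under median scaling (5 and 4 at an unadjusted p under 0.05). Ddit4 and Mxi1 were early-only, and the others of these 6 were lower under WSS at both times.

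The promoter windows of 4 of these genes are shown because genes of 3 classes carry the same short element in them. Each runs from 250 bases before to 50 after the start of the gene, 5′ to 3′, from RefSeq on GRCm38.p6, and ACGTG, the core of the element that HIFs bind, is in capitals where it occurs on either strand (as CACGT on the other). On the probes used, Car9 (chr4:43506776-43507075, plus strand) and Egln3 (chr12:54203825-54204124, minus strand) were lasting falls, Slc2a1 (chr4:119108495-119108794, plus strand) a fall that shrank and Ddit4 (chr10:59951721-59952020, minus strand) an early-only fall.
Car9: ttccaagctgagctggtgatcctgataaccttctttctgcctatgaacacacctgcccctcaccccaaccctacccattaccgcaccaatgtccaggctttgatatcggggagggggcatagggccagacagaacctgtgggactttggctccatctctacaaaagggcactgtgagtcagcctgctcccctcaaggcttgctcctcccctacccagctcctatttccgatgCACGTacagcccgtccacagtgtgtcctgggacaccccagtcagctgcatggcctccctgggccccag
Egln3: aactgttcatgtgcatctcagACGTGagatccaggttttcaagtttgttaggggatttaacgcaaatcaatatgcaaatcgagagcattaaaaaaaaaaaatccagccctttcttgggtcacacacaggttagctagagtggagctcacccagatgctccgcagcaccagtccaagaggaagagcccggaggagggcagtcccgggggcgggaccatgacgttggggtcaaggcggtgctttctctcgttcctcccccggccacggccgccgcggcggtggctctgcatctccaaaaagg
Slc2a1: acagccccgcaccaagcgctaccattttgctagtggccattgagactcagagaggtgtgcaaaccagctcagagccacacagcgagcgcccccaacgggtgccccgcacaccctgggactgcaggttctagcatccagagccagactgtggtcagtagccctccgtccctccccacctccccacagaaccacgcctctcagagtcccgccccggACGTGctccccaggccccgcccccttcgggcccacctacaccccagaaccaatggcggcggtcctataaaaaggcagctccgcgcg
Ddit4: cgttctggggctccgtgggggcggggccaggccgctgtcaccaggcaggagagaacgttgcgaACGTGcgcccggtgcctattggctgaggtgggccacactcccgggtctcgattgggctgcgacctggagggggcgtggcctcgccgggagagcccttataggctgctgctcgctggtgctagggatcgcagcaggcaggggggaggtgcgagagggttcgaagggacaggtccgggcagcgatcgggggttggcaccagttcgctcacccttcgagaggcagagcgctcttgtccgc
The leftmost base of the element lay 18, 229, 36 and 187 bases before the start in these genes. It was found on either strand, overlaps of both strands counted once, in at least 1 window of 13 of 18 HIF targets and 12 of 18 glycolysis genes with a window, and of 2611 of 8975 tested genes (29.1%). The share was 37.5% in lasting falls without a called difference, 28.9% in early-only falls, 33.6% in early-only rises, 40.3% in late-only falls and 19.6% in late-only rises. It was 40.4% in reversed genes, and 2 of 9 (22.2%) in lasting falls that differed in size, the group that holds Slc2a1. Of all 32851 windows 19.6% held it. These shares are descriptions of letters in a window.

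Reversed effects came in both orders. Gbp2, an interferon-induced GTPase, had signals at 6 h of 5.15, 5.51 and 4.70 in static and 6.49, 6.02 and 6.04 in WSS arrays. After 36 h they were 7.09, 6.07 and 6.90 in static and 5.19, 5.23 and 5.51 in WSS arrays. WSS was above static on every array at 6 h and below it on every array at 36 h, by 2.09-fold and 2.6-fold, and the interaction was -2.44 ± 0.32 (adjusted p = 0.00029). Dkk1, a secreted Wnt antagonist, had signals at 6 h of 5.10, 4.60 and 4.62 in static and 6.10, 6.26 and 6.37 in WSS arrays. At 36 h they were 5.60, 4.99 and 5.45 in static and 4.61, 4.60 and 4.89 in WSS arrays. It was above background on 1 of 3 static arrays at 6 h, on 2 of 3 static arrays at 36 h and on no WSS array at 36 h, and was 2.77-fold higher at 6 h and at least 1.17-fold lower at 36 h, with an interaction of -2.12 ± 0.26 (adjusted p = 0.0002).

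In the other order, Foxb1, a forkhead factor of the embryonic nervous system, had signals at 6 h of 7.23, 7.77 and 7.49 in static and 5.72, 5.86 and 5.60 in WSS arrays. By 36 h the values were 6.23, 6.23 and 5.31 in static and 6.70, 6.71 and 6.47 in WSS arrays. It was 3.42-fold lower and then 1.63-fold higher under WSS, with an interaction of 2.48 ± 0.31 (adjusted p = 0.00028). A further detected probe of Foxb1 had smaller flow effects of -0.74 and 0.17, with an interaction of 0.91. Espn, an actin-bundling protein of sensory hair cells, had signals at 6 h of 5.99, 6.83 and 6.43 in static and 5.41, 5.01 and 4.85 in WSS arrays. The 36 h signals were 5.51, 5.19 and 5.25 in static and 6.22, 5.80 and 6.33 in WSS arrays. It was low in WSS arrays at 6 h and in static arrays at 36 h, where 1 of 3 arrays was above background in each, and its interaction was 2.13 ± 0.31 (adjusted p = 0.00072). A further detected probe of Espn had flow effects of 0.008 and 0.37, with a small interaction of 0.36 and no fall at 6 h. The reversal of Espn thus depends on the probe.

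Genes that rose at 6 h and were lower at 36 h also included the carbonic anhydrase Car3 (1.42 and -0.79), the myosin light chain kinase Mylk (1.02 and -1.05), the secreted factors C1qtnf3 (0.84 and -1.22) and Cthrc1 (1.09 and -0.61), the taste transducin Gnat3 (1.37 and -0.54) and the lipase-like Lipo3 (1.04 and -0.71). Genes that fell and were then higher included Psd2 (-0.74 and 1.31), an exchange factor of Arf6, Nyap1 (-0.72 and 1.01), a neuronal adaptor, Mdga2 (-0.57 and 1.03), a synaptic adhesion regulator, and Fbxo41 (-0.61 and 0.87), a neuronal F-box gene. They also included the phosphatase gene Ptpn14 (-0.86 and 0.69), the chromatin remodelling gene Smarcc2 (-0.56 and 0.82), Kit (-0.65 and 0.58), the stem cell factor receptor, and Mdm2 (-0.61 and 0.69). No left-out vehicle array ended the interaction call of any of these 18 genes, but the smaller of their flow effects was often near the threshold. The 36 h call was lost for C1qtnf3, Car3, Cthrc1, Dkk1, Espn, Foxb1, Gnat3, Kit, Lipo3, Mdm2, Mylk and Ptpn14 without 2 to 8 single arrays, with adjusted p of up to 0.27 (Foxb1, without static vehicle array 3 at 36 h), and the 6 h call for C1qtnf3, Kit, Mdga2, Mdm2, Nyap1, Psd2 and Smarcc2 without 1 to 5, with adjusted p of up to 0.2 (Psd2, without static vehicle array 1 at 6 h).

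Rises of neuron, neural crest and melanoblast genes were called mostly at 36 h. In the neuron and neural crest list, of 20 tested genes, 1 rose and 0 fell at 6 h and 12 rose and 1 fell at 36 h, and the median flow effect was 0.09 at 6 h and 0.77 at 36 h. Rises were called in 15.1% of all genes at 6 h and in 4.66% at 36 h. The interaction was positive in 4 of 20 (Ret, Sox10, Isl1 and Ngfr) and negative in 0, against 6.33% and 5.42% of all genes, and positive in 3 under median scaling. Sox10, a transcription factor of migrating neural crest, had flow effects of -0.49 at 6 h and 0.84 at 36 h, Isl1, of sympathetic and motor neurons, -0.26 and 1.06, and Ngfr, a neurotrophin receptor, -0.17 and 0.96. Of 6 tested melanoblast genes 4 had a positive interaction, namely Dct, Sox10, Kit and the endothelin receptor gene Ednrb (-0.77 and 0.23, early-only), and 5 did under median scaling. A further detected probe of Ednrb had flow effects of 0.59 and 0.23, with an interaction of the opposite sign (-0.36). The summed level of the 5 tested neuron and neural crest markers moved with these results, at 11.88 to 12.22 in static and 12.06 to 12.25 in WSS arrays at 6 h, and 11.08 to 11.50 and 12.20 to 12.46 at 36 h, as log2 of the sum. The 2 tested melanoblast markers, Dct and Pmel, ranged over 6.31 to 7.70 in static and 8.06 to 9.71 in WSS arrays at 36 h. The part of these markers in the results was not tested.

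Called differences among p53 targets were all positive. Of 17 tested genes, 3 rose and 4 fell at 6 h and 7 rose and 0 fell at 36 h, and the median flow effect was -0.11 at 6 h and 0.67 at 36 h, the first of which turned positive under median scaling. Over all genes 15.1% rose and 14.3% fell at 6 h, and 4.66% rose and 4.72% fell at 36 h. The interaction was positive in 5 of 17 and negative in 0, against 6.33% and 5.42% of all genes. Under median scaling it was positive in 1, and 4 rose and 0 fell at 6 h and 9 and 0 at 36 h. Cdkn1a, an inhibitor of cyclin-dependent kinases, had signals at 6 h of 10.31, 9.99 and 10.15 in static and 10.28, 10.01 and 10.16 in WSS arrays. After 36 h they were 10.28, 9.91 and 10.60 in static and 11.80, 10.65 and 11.88 in WSS arrays. It was level at 6 h and 2.27-fold higher under WSS at 36 h, with an interaction of 1.18 ± 0.32 (adjusted p = 0.02), a call that no single left-out vehicle array ended. Bbc3, which triggers apoptosis, had flow effects of -0.76 and 0.28, and Zmat3, an RNA-binding target of p53, -0.49 and 0.62. Bbc3 was early-only, and for Zmat3 the difference alone passed. Mdm2 was among the reversed genes, and Trp53inp1, a p53 cofactor that was named after its value was seen, was late-only (0.15 and 0.99).

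Falls of immediate early genes were called mostly at 6 h, as were falls over all genes. Of 18 tested genes, 0 rose and 10 fell at 6 h and 0 rose and 1 fell at 36 h, and the median flow effect was -0.65 at 6 h and -0.12 at 36 h, the latter of which turned positive under median scaling. Falls were called in 14.3% of all genes at 6 h and in 4.72% at 36 h. The interaction was positive in 4 of 18, against 6.33% of all genes, and in 0 by limma under median scaling (4 at an unadjusted p under 0.05 in either direction), where 1 rose and 6 fell at 6 h and 0 and 0 at 36 h. Fos, a subunit of AP-1, had signals at 6 h of 11.56, 11.11 and 11.35 in static and 10.10, 9.88 and 9.79 in WSS arrays. At 36 h they were 12.01, 12.30 and 11.96 in static and 12.40, 12.71 and 11.32 in WSS arrays. Its interaction was 1.47 ± 0.45 (adjusted p = 0.036). Groups were apart at 6 h and overlapped at 36 h, and the level rose with time by 2.22 under WSS, while the time change of 0.75 in static culture missed the threshold (adjusted p = 0.053). Egr1, a zinc finger factor, had flow effects of -1.17 and -0.03, and Zfp36, which destabilises messenger RNAs, -0.95 and 0.09. Fosb (-1.03 and 0.89) passed for the difference alone.

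Called differences among amino acid and endoplasmic reticulum stress genes were all negative. Of 23 tested genes, 3 rose and 5 fell at 6 h and 0 rose and 8 fell at 36 h, and the median flow effect was -0.16 at 6 h and -0.42 at 36 h, the first of which turned positive under median scaling. Over all genes 15.1% rose and 14.3% fell at 6 h, and 4.66% rose and 4.72% fell at 36 h. The interaction was negative in 6 of 23 and positive in 0, against 5.42% negative over all genes, and in 5 under median scaling, where 6 rose and 2 fell at 6 h and 0 and 3 at 36 h. Nupr1, a stress-induced chromatin protein, had flow effects of -0.71 and -2.15 and Atf5, a stress transcription factor, 0.36 and -0.81, both late-only. Phgdh, the first enzyme of serine synthesis, had 0.68 and -0.49 and Sdf2l1, a folding factor of the endoplasmic reticulum, 0.91 and -0.12, both early-only rises. The promoter window of Nupr1 (chr7:126625421-126625720, minus strand) holds TGATGCAA, a form of the element that ATF4 with C/EBP partners binds, on the reverse strand as TTGCATCA, in capitals:
Nupr1: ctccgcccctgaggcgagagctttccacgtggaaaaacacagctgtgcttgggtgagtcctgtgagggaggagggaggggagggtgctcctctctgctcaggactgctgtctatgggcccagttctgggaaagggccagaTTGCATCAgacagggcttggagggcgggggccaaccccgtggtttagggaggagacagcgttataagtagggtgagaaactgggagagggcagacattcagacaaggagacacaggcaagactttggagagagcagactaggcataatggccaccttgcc
Among late-only falls 4 of 67 genes with a window held TGATGCAA on either strand, among late-only rises 0 of 97, and of all tested genes 68 of 8975 (0.758%). Of all windows 0.895% held it.

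Among cell cycle, lipid and clock genes the direction of the 6 h calls depended in part on the scaling. In DNA replication and mitosis, of 27 tested genes, 6 rose and 2 fell at 6 h and 1 rose and 0 fell at 36 h, near the shares of all genes (29.4% and 9.38% called). Under median scaling 15 rose and 0 fell at 6 h and 6 and 0 at 36 h. The interaction was negative in 4 of 27 and positive in 1, against 5.42% and 6.33% of all genes, and in 2 and 0 under median scaling. Ccne2, its relative Ccne1 (0.91 and -0.06) and the thymidylate synthase gene Tyms (1.14 and 0.30) were early-only rises, and the rise of Rrm2 was smaller at 36 h, while the proliferation marker Mki67 passed for a positive difference alone (-0.48 and 0.78). A further detected probe of Mki67 had flow effects of -0.43 and -0.17, with a small interaction of 0.26. In cholesterol and fatty acid synthesis, of 19 tested genes, 1 rose and 10 fell at 6 h and 0 rose and 1 fell at 36 h, whereas under median scaling 2 rose and 0 fell at 6 h and 0 and 0 at 36 h, so these falls were not kept by limma (4 and 2 genes had an unadjusted p under 0.05 in either direction). With quantile normalization 14.3% of all genes fell at 6 h and 4.72% at 36 h. Of the 10 that fell at 6 h with quantile normalization, Srebf2, the master regulator of cholesterol synthesis, alone had a called difference (-0.66 and 0.13), so whether the rest changed with time was not resolved. Clock, which drives the circadian cycle, was an early-only fall (-0.52 and 0.01).

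Single matrix and contractile genes of the stroma had called differences. In the mesenchyme and matrix list, of 25 tested genes, 0 rose and 6 fell at 6 h and 0 rose and 6 fell at 36 h, and the median flow effect was 0.02 at 6 h and -0.40 at 36 h. Under median scaling 6 rose and 2 fell at 6 h and 1 and 4 at 36 h, so the direction of the 6 h calls turned around. With quantile normalization 14.3% of all genes fell at 6 h and 4.72% at 36 h. The interaction was negative in 2 of 25, near the 5.42% of all genes. Tcf21, a transcription factor of mesenchyme, and Dcn, the proteoglycan decorin, were late-only, with flow effects of 0.18 and -1.05 and of 0.15 and -0.93. The summed level of the 6 mesenchyme markers was 11.44 to 11.51 in static and 11.08 to 11.14 in WSS arrays at 6 h and 12.56 to 12.71 and 11.57 to 11.98 at 36 h, and its part in these results was not tested. Among 15 smooth muscle genes 2 had a negative interaction, against 5.42% of all genes, the reversed Mylk and the myosin light chain Myl9 (0.57 and -0.83). Wnt2, a ligand of the Wnt pathway, was late-only (0.46 and -0.70), and the BMP regulator Bmper (1.17 and -0.14) and the growth factor Gdf10 (1.75 and 0.09) were early-only rises.

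Called differences among genes of blood stem cell emergence were near the share of all genes. Of 16 tested genes of blood stem cell emergence the interaction was positive in 1 (Kit) and negative in 1 (Fli1, an Ets factor, 0.62 and -0.35), against 11.8% of all genes in either direction, and 5 rose and 2 fell at 6 h, where 29.4% of all genes were called. Under median scaling the interaction was positive in 1 and negative in 0, and 5 rose and 0 fell at 6 h. Runx1, required for blood stem cells to form, had flow effects of 0.18 ± 0.26 and 0.08 ± 0.26 and an interaction of -0.10 with a 95% interval from -0.88 to 0.67. Tal1, a partner of Gata2, rose at 6 h (1.02) and had 0.10 at 36 h, with an interaction that missed the threshold, at -0.92 ± 0.38 (adjusted p = 0.11). Among 20 erythroid genes the red cell antigen gene Ermap was an early-only rise (1.09 and 0.18), the transferrin receptor gene Tfrc an early-only fall (-0.98 and -0.23) and the spectrin gene Sptb a late-only rise (-0.36 and 0.85). The interaction was thus called as positive in 2 of 20 and as negative in 1, against 6.33% and 5.42% of all genes. Its estimate was positive in Tfrc and Sptb alone, 2 of the 20 genes, and the median interaction was -0.86. Over the same list the median flow effect was 0.32 at 6 h and -0.25 at 36 h, and the 5 erythroid markers summed to 15.86 to 16.68 in static and 16.33 to 16.67 in WSS arrays at 6 h and 13.69 to 15.55 and 13.52 to 14.39 at 36 h. Their part in these results was not tested.

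Of 22 tested genes of laminar flow in endothelium 0 had a positive and 1 a negative interaction, against 6.33% and 5.42% of all genes. Counts this small say little about the list. The negative interaction was that of the chemokine gene Ccl2 (0.49 and -0.65). Klf2 had signals at 6 h of 6.01, 6.41 and 6.64 in static and 6.09, 6.50 and 6.58 in WSS arrays. By 36 h the values were 7.53, 8.03 and 6.97 in static and 8.99, 8.80 and 7.31 in WSS arrays. Its groups overlapped at both times, and its interaction of 0.82 ± 0.64 (adjusted p = 0.43) had a 95% interval from -0.51 to 2.15, which spans 0. Klf4 had flow effects of -0.63 ± 0.25 and 0.36 ± 0.25 with an interaction of 0.99 ± 0.36 (adjusted p = 0.075), and the nitric oxide synthase gene Nos3 0.10 ± 0.22 and 0.04 ± 0.22. Thbd, the anticoagulant thrombomodulin, was a lasting fall (-1.87 and -1.63). The endothelial adhesion genes Cdh5 and Pecam1 did not pass at either time or for the difference. In 19 myeloid genes the lipopolysaccharide receptor gene Cd14 was an early-only rise (1.73 and 0.37), as was the chemokine gene Cxcl10 (0.72 and -0.21) among 15 inflammatory genes. The interaction was negative in 1 and positive in 0 of the myeloid genes, and negative in 3 and positive in 1 of the inflammatory genes. The shares of all genes were 5.42% and 6.33%.

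**Figure D4:**
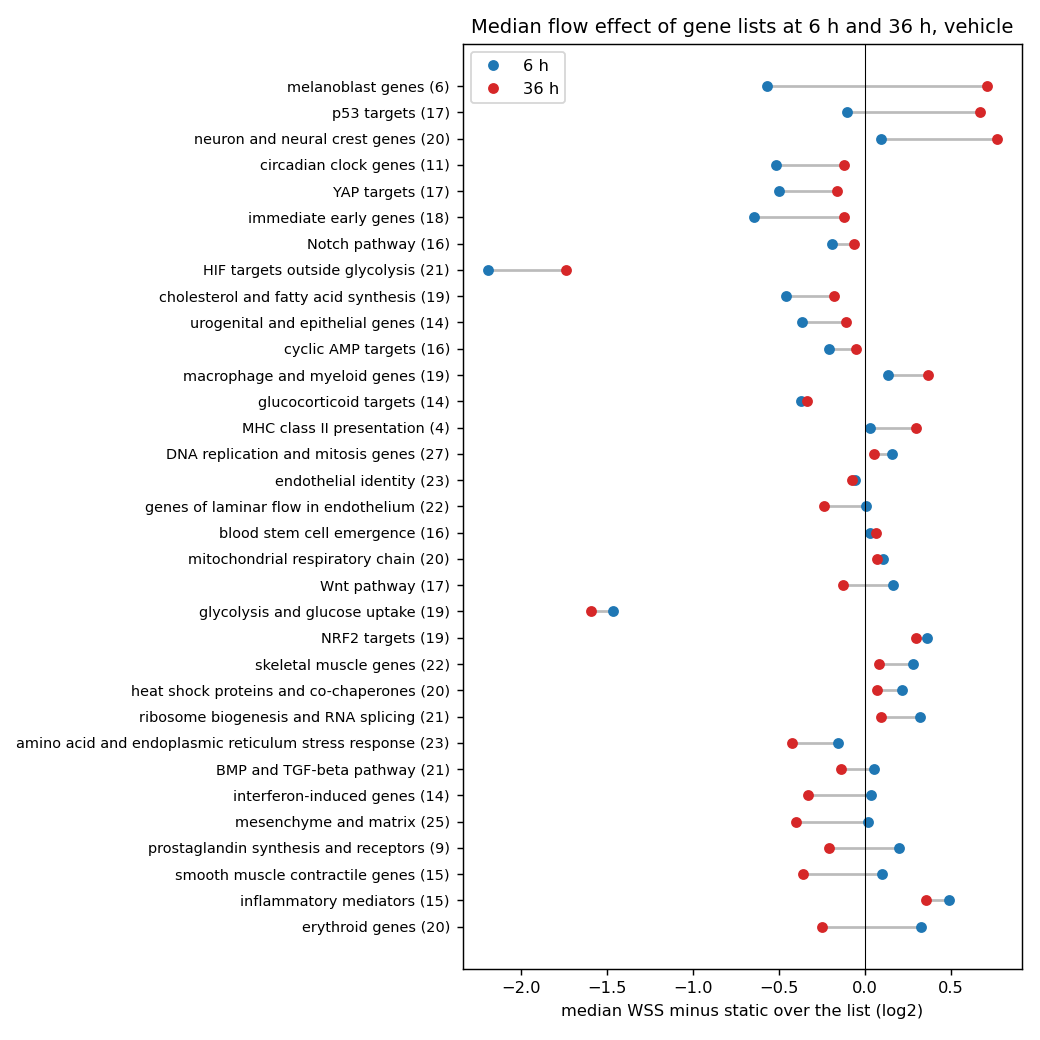
For each gene list (number tested in brackets) the median WSS minus static difference (log2) is shown at 6 h (blue) and 36 h (red), ordered by the median interaction. The HIF and glycolysis lists lie far below 0 at both times, whereas the neuron list moves from 0.09 to 0.77 and the p53 list from -0.11 to 0.67. Under median scaling the 6 h medians of 3 lists and the 36 h medians of 10 lists change sign, among them that of the p53 list at 6 h.

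Further called genes came from the other lists. Ahsa1, a co-chaperone of Hsp90, was an early-only rise (0.95 and 0.13), as was Sdhb, a subunit of complex II (0.86 and 0.01). Early-only falls were Clk4, a kinase of splicing factors (-0.64 and 0.22), the YAP target Ccn1 (-1.16 and -0.28) and titin, Ttn (-0.97 and 0.20). By limma the interaction was called in 0 of 9 genes of prostaglandin synthesis and reception, 0 of 19 NRF2 targets and 0 of 16 Notch genes, of which 2, 1 and 3 had an unadjusted p under 0.05. As 11.8% of all genes were called, counts of 0 in lists of this size say little about them. Hmox1, haem oxygenase, had flow effects of 0.77 and 1.73 and Cxcl12, a chemokine of the stem cell niche, -0.28 and -0.67, each past the threshold at 36 h and neither for the difference. Further detected probes of Cxcl12 had -0.04 and -1.25, and -0.19 and -1.34, with larger interactions of -1.21 and -1.15. The result for Cxcl12 thus depends on the probe. The inducible heat shock gene Hspa1a (-2.90 and -0.76) passed at 6 h, with an interaction of 2.14 ± 0.95 (adjusted p = 0.14). Lox, an oxidase that crosslinks collagen, was a lasting fall (-1.68 and -3.02), as was the stress gene Ier3 (-1.67 and -0.92). Ptges, a prostaglandin E synthase, and Itga2b, an early marker of blood progenitors, did not pass at either time or for the difference.

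Where the difference alone passed, neither flow effect did, which with equal standard errors needs effects of opposite sign. There were 124 such genes, with 73 differences positive and 51 negative. The positive side held, besides Fosb, the forkhead gene Foxq1 (-0.55 and 1.00), the kinase gene Aatk (-0.53 and 0.81) and the epithelial cadherin gene Cdh1 (-0.67 and 0.66). On the negative side stood fibromodulin, Fmod (0.69 and -0.90), the matrix gene Olfml2b (0.58 and -0.72) and the progestin receptor gene Paqr7 (0.65 and -0.66). The interaction missed the threshold without some single arrays for Aatk, Ccl2, Cdh1, Fmod, Fosb, Foxq1, Mki67, Myl9 and Paqr7, each without 3 to 10 of the 12 vehicle arrays, and its adjusted p then reached at most 0.12, for Myl9 (interaction -1.20) without WSS vehicle array 1 at 6 h.

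The same interaction in the 12 indomethacin arrays, which share no array with the vehicle comparison, passed for 356 genes (2.91%), 172 positive and 184 negative, or 48.3% positive against 15.8% under median scaling, which moved the median of all genes to -0.22. Without 1 of its arrays this count lay between 116 (without WSS indomethacin array 2 at 6 h) and 400 (without WSS indomethacin array 3 at 36 h), and also fell by more than 1.5 times without static indomethacin array 1 at 6 h (145), static indomethacin array 2 at 6 h (205), WSS indomethacin array 3 at 6 h (144), static indomethacin array 2 at 36 h (193) and WSS indomethacin array 1 at 36 h (139). Of early-only genes 947 of 999 (94.8%) had an indomethacin interaction of the same sign, of late-only genes 221 of 231 (95.7%) and of reversed genes 63 of 63, where genes that passed nothing in vehicle had the same sign in 67.5%. The interaction itself passed with the same sign in 136 early-only, 47 late-only and 29 reversed genes, and with the opposite sign in 0, 1 and 0. Median sizes were smaller, at 0.59 against 0.96 for early-only falls, -0.45 against -0.88 for early-only rises and 0.58 against 0.99 for late-only rises. The classes were chosen by the vehicle values, so no test is given for this difference in size.

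Aire (2.23), Dct (2.23), Gbp2 (-2.16), Espn (2.02), Col8a2 (-1.90), Tcfl5 (-1.75), Ddit4 (1.48) and Mdm2 (1.26) passed in indomethacin, whereas Dok1 (-0.03), Zfp386 (-0.37) and Nyap1 (0.29) did not. The difference between the vehicle and the indomethacin interaction, the flow by time by drug term, passed for 0 genes in limma, with a smallest adjusted p of 0.36 and 599 genes (4.9%) at an unadjusted p under 0.05. So no gene was shown to differ in its change of flow effect between vehicle and drug, Dok1, Zfp386 and Nyap1 included.

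**Figure D5:**
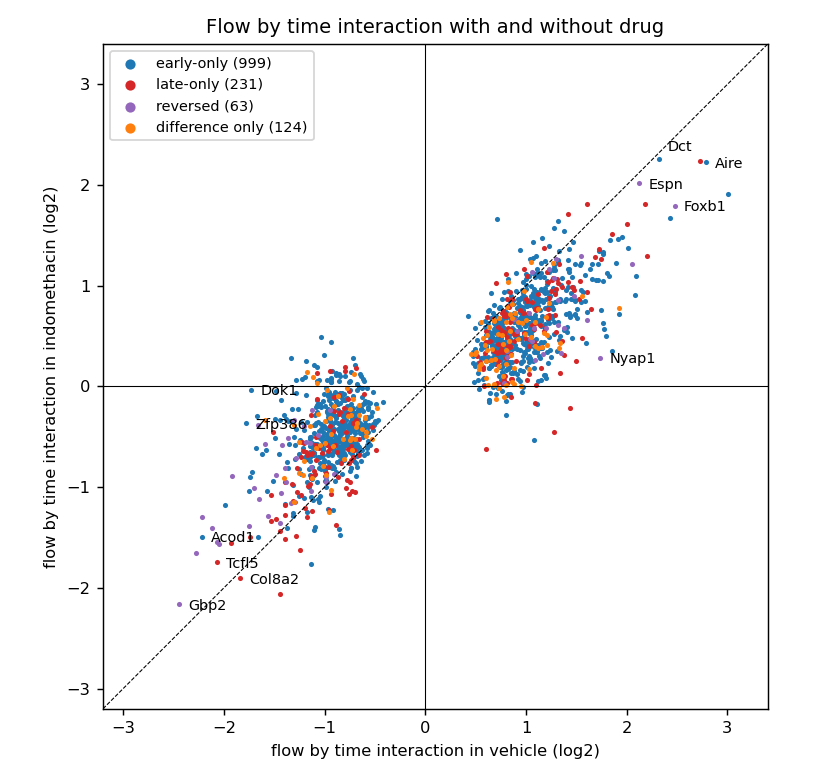
Each point is a gene with a called interaction in vehicle, placed by that interaction (log2) on the x axis and by the interaction in indomethacin on the y axis, with the dashed line at equality. Most points lie in the quadrants of equal sign and nearer to 0 on the y axis; Aire lies at 2.79 and 2.23, Dok1 at -1.73 and -0.03.

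Several named genes were dim in part of the arrays. A probe above background on 1 or 2 of the 3 arrays of a vehicle group, besides those given above, was found for Acod1, As3mt, Ccl2, Cd14, Cdh1, Cdh5, Fbxo41, Fli1, Fmod, Foxq1, Gbp2, Gnat3, H2-Ab1, Il11, Jph3, Matn4, Mdga2, Mmp28, Msrb3, Nos3, Paqr7, Pecam1, Ptpn14, Rln1, Sostdc1, Tal1 and Tulp1, and the offset in the normalization makes changes of such dim probes appear smaller than they are. Of 539 genes with a called interaction and a further detected probe, all probes had an interaction of the same sign in 456. Among the named genes a further probe had the opposite sign in Ednrb (above), Ptpn14 (-0.05), Ttn (-0.17) and Tyms (0.09). Where the signs matched, sizes could still differ, as in Sec22a, Foxb1, Espn and Mki67 (above). Interactions of further probes were also smaller in Mxi1 (0.12), Bbc3 (0.83 and 0.19) and Clk4 (0.56, 0.13 and 0.18), among others.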

How the data were processed

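Total RNA of AGM cells was hybridised as biotinylated cRNA to Illumina bead arrays, 1 array for each of 24 samples in 8 groups of 3. The main values were the deposited signals, a linear intensity per probe with no background subtraction or normalization per the file headers and values. Each came with the deposited detection p-value per probe, per the file headers. The authors' processed values, deposited as a second intensity table, were linear, background-subtracted and equal in distribution across arrays with column medians of 11.6 to 11.7. Their method of background subtraction is not given here, and they served as an alternative after a floor at 16 and log2.

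The neqc function of limma 3.58.1, run in R 4.3.3, was applied to these signals. Background was corrected by normexp, with the detection p-values standing in for negative control beads. Quantile normalization and log2 followed an offset of 16. A probe was kept if some group had a detection p under 0.05 on each of its 3 arrays. This held for 21251 of 45281 probes, of which 18242 had a single symbol, and the brightest probe was kept for each of 12226 genes, 4145 of which had further probes. Symbols were updated to RefSeq on GRCm38.p6 by Entrez ID for 28620 probes and by accession for 2637, and kept as in the platform table for 4527. One linear model with a mean per group was fitted over all 24 arrays (16 residual and 21.4 total degrees of freedom), all tests were 2-sided, and p-values were adjusted by Benjamini-Hochberg over all genes. An exact test of 3 against 3 arrays cannot go below 0.1. The steps were tested on simulated data. Where a group was not above background on any array, a fold is a lower bound against the dimmest detected level.

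Named genes are the 8 largest interactions each way in the early-only, late-only and reversed classes, the 6 lasting genes each way with the largest smaller effect, the 4 largest each way with only the difference called, up to 4 called members of each of 33 gene lists, and a panel of flow, blood and stress genes, passing over clones without a name. The members and lists were chosen with earlier results of these data known. Alternatives were another scaling, offset, background, filter, probe choice and variance model, array weights, the vehicle arrays alone, stricter classes, a replicate block, the authors' values and each array left out. A block within each time and the left-out indomethacin arrays were added after the data were seen. Deviations of same-numbered static and WSS arrays from their group means correlated at 0.149, 0.327 and 0.361 at 36 h, so the numbers were taken to pair the arrays there, and at 0.097, 0.0259 and 0.106 at 6 h, where they were not. The main fit used no pairing at either time, and replicate blocks entered the alternatives only. Between 6 h and 36 h no correlation was over 0.1.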

Additional observations from a re-analysis of the deposited data

Results flagged for a closer look

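The flow effect differed between the times, by the interaction term in limma, in 1437 genes, and in each of the 100 named genes below, which are given with the flow effect at 36 h minus that at 6 h (log2). Groups of 3 arrays were not tested for an outlying array.

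Among early-only genes the named positive differences, from falls at 6 h, were Aire (2.79), Phxr4 (2.43), Sostdc1 (2.32), Mrg1 (2.09), Epha2 (2.08), Trpm7 (2.02), Ddit4 (1.96), Kcnq5 (1.92), Fos (1.47), Ttn (1.18), Egr1 (1.15), Zfp36 (1.04), Bbc3 (1.04), Ednrb (1.00), Ccn1 (0.88), Clk4 (0.86), Srebf2 (0.79), Mxi1 (0.75), Tfrc (0.75) and Clock (0.53). Negative ones, from rises at 6 h, were Acod1 (-2.22), Chrna1 (-1.99), Zfp386 (-1.78), Ccne2 (-1.75), Sec22a (-1.74), Dok1 (-1.73), Mmp28 (-1.72), Cr1l (-1.68), Gdf10 (-1.66), Cd14 (-1.36), Bmper (-1.31), Phgdh (-1.17), Sdf2l1 (-1.03), Fli1 (-0.96), Ccne1 (-0.96), Cxcl10 (-0.92), Ermap (-0.90), Sdhb (-0.85), Tyms (-0.84) and Ahsa1 (-0.81).

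Late-only genes with a positive difference were Dct (2.73), Ass1 (2.18), Matn4 (2.00), Hap1 (1.85), Jph3 (1.74), Ret (1.73), Rln1 (1.68), Il11 (1.65), Sox10 (1.33), Isl1 (1.32), Sptb (1.21), Cdkn1a (1.18) and Ngfr (1.14), and with a negative difference Tcfl5 (-2.06), Tulp1 (-1.93), Col8a2 (-1.84), Pdgfrl (-1.74), Pdlim2 (-1.53), As3mt (-1.53), Msrb3 (-1.51), Ptx3 (-1.48), Nupr1 (-1.44), Tcf21 (-1.23), Atf5 (-1.17), Wnt2 (-1.16) and Dcn (-1.09).

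Of the reversed genes Foxb1 (2.48), Espn (2.13), Psd2 (2.05), Nyap1 (1.74), Mdga2 (1.60), Ptpn14 (1.54), Fbxo41 (1.48), Smarcc2 (1.38), Mdm2 (1.30) and Kit (1.23) turned upward, and Gbp2 (-2.44), Car3 (-2.21), Dkk1 (-2.12), Mylk (-2.07), C1qtnf3 (-2.05), Gnat3 (-1.92), Lipo3 (-1.75) and Cthrc1 (-1.70) turned downward.

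Lasting effects that shrank were those of Bhlhe40 (1.63), Slc2a3 (1.12), Slc2a1 (0.81) and Bnip3l (0.75). For Cox4i2 (-1.41) WSS arrays were not above background at either time, and a growing flow effect was not measured. The difference alone passed, as positive, in Fosb (1.92), Foxq1 (1.55), Aatk (1.34), Cdh1 (1.33), Mki67 (1.27) and Zmat3 (1.12), and, as negative, in Fmod (-1.59), Myl9 (-1.40), Paqr7 (-1.31), Olfml2b (-1.30) and Ccl2 (-1.14).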

How the results depend on the processing

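Across 246 called values of named genes, 5558 of 6145 values under the alternatives kept direction and call, 587 kept direction and lost the call, and 0 changed sign. Many of these genes were named for a large value in the same fit. Several alternatives also leave the estimate itself unchanged, among them the vehicle arrays alone, another variance model and a replicate block. With all detected probes each named gene kept its main probe, so its estimate could not change either. The 0 changes of sign thus leave out further probes, whose interaction had the opposite sign in Ednrb, Ptpn14, Ttn and Tyms. Kept direction was thus in part fixed in advance. The cause of the shifts below was not tested, unless fewer arrays, more probes or a stricter rule is the alternative itself. Median scaling called 680 interactions, 2065 effects at 36 h, 439 early-only, 909 lasting and 13 difference-only genes. Testing all detected probes gave 2343 interactions, 5465 effects at 6 h, 1704 early-only and 205 difference-only probes. The vehicle arrays alone gave 948 interactions, 144 late-only, 33 reversed and 67 difference-only genes. Renormalizing without WSS vehicle array 2 at 36 h gave 921 interactions, 644 early-only, 151 late-only and 63 difference-only genes. Array weights raised the indomethacin interaction to 1092. At an adjusted p under 0.01 there were 267 early-only, 61 late-only, 143 lasting, 7 reversed and 24 difference-only genes, and with a 2-fold minimum 219, 69, 79, 2 and 290. Leaving out single arrays gave 836 to 1436 interactions, 2586 to 3694 effects at 6 h, 608 to 1243 at 36 h, 116 to 435 interactions in indomethacin, 546 to 991 early-only, 145 to 307 late-only, 217 to 406 lasting, 35 to 73 reversed and 61 to 154 difference-only genes. The flow by time by drug term was called in 0 genes by limma in each of these fits. With the replicate number as a replicate block the interaction passed for 1567 genes, and for 1671 with a block within each time, added after the data were seen. Effects at 36 h numbered 1279 and 1370 in these fits. Neither block moved a count by over 1.5 times, and they ended 3 and 2 called values of named genes, the interactions of Ccn1 and Slc2a1 in both and of Ttn in the first. The 36 h effects of Aatk, Dok1, Foxq1, Olfml2b and Zmat3, not called without a block, passed in both of these fits, and also under some other alternatives. Same-numbered arrays correlated at -0.03 to 0.36, and 9 of 12 correlated best with an array of their own number, a hint from the data and not from the design.

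Small groups, dim probes and the unknown chip layout limit these values. Signals near background carry the offset and understate changes, and the class of a gene near a threshold depends on single arrays.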
